A study of Vitis vinifera with 16 samples.

Results

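The step from mid-ripening to harvest in Muscat Blanc à Petits Grains berries was measured by RNA-seq as the difference between berries of intermediate sugar content (stage E-L36) and harvest-ripe berries (stage E-L38). The members were all samples labelled with either stage, 8 of the 16 samples of the series and 12 of its 24 libraries, and the reads of the libraries of a sample were summed. Each stage had 4 samples, 1 from Changli (CL, Hebei, eastern China) and 1 from Gaotai (GT, Gansu, northwestern China) in each of the vintages 2010 and 2011. All berries came from the same white cultivar and were freed of seeds before extraction. The vines stood in the field without an experimental treatment, and pest control and fertilization were similar in both regions. They were grown from cuttings in 1 vineyard per region, and the same vines were sampled in both years. The region can therefore not be told apart from the vineyard or from the age of its vines, which differed. The E-L38 samples had 2 libraries each and the E-L36 samples 1, since high-quality RNA was short at that stage. Both vintages and both regions served as replicates of the step, so p-values rest on the spread that stage, region and vintage leave among these 8 samples.

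Between the middle of ripening and harvest, a grape berry goes on importing sugar and losing malate while its cell walls loosen and its aroma builds up. In muscat grapes the aroma comes largely from monoterpenes, made from precursors of the plastidial MEP pathway by terpene synthases and stored as odorless glycosides by UDP-glycosyltransferases (UGTs). The cytosolic MVA pathway supplies the precursors of sesquiterpenes and sterols. Abscisic acid and ethylene are the hormones most often tied to the start of ripening.

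The 8 samples held 4698604 (2011 CL, E-L36) to 22917077 (2011 GT, E-L36) summed counts. Each library was compared with the other libraries by Pearson's r of log2 counts scaled to the library total (CPM) over 18836 transcripts, and r ran from 0.905 to 0.984 among the 12 libraries. Library 2 of the 2010 GT sample of E-L38 was nearest to both libraries of the 2010 CL sample of E-L38 (r = 0.979 and 0.974) and farther from library 1 of its own sample (r = 0.956), which was itself nearest to the 2011 GT libraries of E-L38 (0.979 and 0.971). The single library of the 2010 GT sample of E-L36 was nearest to both libraries of the 2011 CL sample of E-L38 (0.975 and 0.969). The 2010 CL sample of E-L36 lay nearest to harvest berries of its own region and vintage (0.970), and the 2011 CL sample of E-L36 nearest to a 2010 CL library of the younger stage E-L35 (0.963). The reason was not tested. Results are given for all samples, and the counts of calls also without library 2 of the 2010 GT sample and without the 2 samples that lay close across stage, region and vintage.

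**Figure D1:**
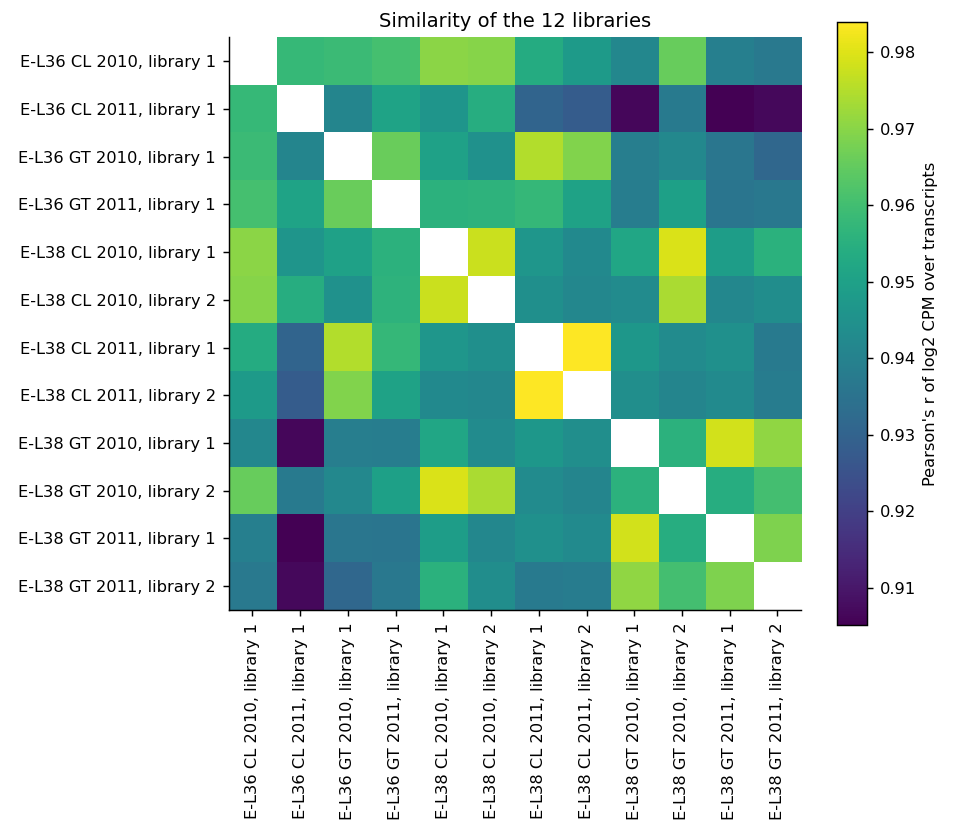
Pearson's r of log2 CPM over transcripts between the 12 libraries, with libraries as rows and columns and the color giving r. Library 2 of the 2010 GT sample of E-L38 sits with the 2010 CL libraries of E-L38, and the 2010 GT library of E-L36 sits with the 2011 CL libraries of E-L38 (0.975 and 0.969).

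Harvest berries differed from mid-ripening berries in 10 transcripts, of which 6 fell and 4 rose, by 1.54 to 3.55 in absolute log2 ratio. edgeR's quasi-likelihood test, with region and vintage as blocks, was run on 17537 of the 23984 transcripts, those that reached 10 counts in 2 or more of the 8 samples. A call needed an adjusted p up to 0.05 and a log2 ratio of 1 or more in size, and the 10 calls make up 0.057% of the transcripts tested (0.0228% higher and 0.0342% lower). At an unadjusted p under 0.05 there were 2699 transcripts (15.4%), of which 1083 were higher (6.18%) and 1616 lower (9.21%). DESeq2 called 585 (3.34%), the 10 among them, with 163 higher (0.929%) and 422 lower (2.41%). No call was left by Bonferroni adjustment, which the study used, or with each of the 4 pairs of region and vintage as a block (0 called by edgeR in both, with 2625 at an unadjusted p under 0.05 and a smallest adjusted p of 0.0839 under the block). The number was also sensitive to single samples. It was 71 without the 2010 CL sample of E-L36, 49 without the 2011 CL sample of E-L38, and 0 without any other of the 8 samples. Without library 2 of the 2010 GT sample of E-L38 it was 7, and without the 2010 GT sample of E-L36 and the 2011 CL sample of E-L38 together it was 0 (edgeR, 1811 at an unadjusted p under 0.05).

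Neither the study nor the reference table gives a product name for any of the 10, so they are described by transcript and locus. The 2 with the largest ratios in each direction were chosen by rule, and the others were added after their values were seen. All levels below are deposited RPKM (read counts per unit of transcript length, scaled to library size) in the order 2010 CL, 2011 CL, 2010 GT and 2011 GT, whereas log2 ratios are edgeR's on TMM-scaled counts.

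XM_002268197.1 (LOC100264066) fell from 5.50, 7.47, 8.68 and 7.14 RPKM at E-L36 to 1.79, 1.63, 1.17 and 0.954 RPKM at E-L38, a log2 ratio of -2.58 (SE 0.25, edgeR adjusted p = 0.0394). Every harvest sample lay below every mid-ripening sample, and the GT samples were at the bottom. XM_002275769.2 (LOC100258895) fell from 97.3, 134, 146 and 109 RPKM to 32.9, 41.8, 17.7 and 17.9 RPKM, a log2 ratio of -2.41 (SE 0.25). The stages were again apart, and the ratio in GT (-2.94) was larger in size than in CL (-1.90), a difference that did not pass the test of the interaction (edgeR adjusted p = 0.604).

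XM_002277913.2 was the most abundant of the 6 that fell. Its level went from 1492, 2395, 1860 and 1704 RPKM to 571, 664, 568 and 456 RPKM, a log2 ratio of -1.83 (SE 0.17) that was nearly equal in CL (-1.81) and GT (-1.85). XM_002285105.1 (LOC100257455) fell from 922, 1412, 691 and 662 RPKM to 427, 632, 227 and 209 RPKM (log2 ratio -1.55). Here the highest harvest sample, 2011 CL, came just under the lowest mid-ripening sample. XM_003635352.1 fell from 114 to 202 RPKM at E-L36 to 32.7 to 64.3 RPKM at E-L38 (log2 ratio -1.96). XM_002285275.2 (LOC100258873) fell by 1.72 on the log2 scale in a different way: its 2011 CL sample was the highest at both stages (99.1 and 34.0 RPKM), and the stages overlapped although each of the 4 pairs fell.

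Of the 4 that rose, XM_002278660.1 (LOC100248679) had the largest ratio. It rose from 0.176, 0.589, 0.196 and 0.875 RPKM to 2.54, 5.39, 5.45 and 8.09 RPKM (log2 ratio 3.55, SE 0.34, edgeR adjusted p = 0.0394). In both regions 2011 was the higher vintage at both stages. XM_002284345.1 (LOC100262460) rose from 0.755, 1.06, 2.16 and 2.86 RPKM to 4.07, 10.2, 10.5 and 17.0 RPKM, a log2 ratio of 2.43 (SE 0.22). XM_002281660.2 (LOC100264878) rose from 6.16, 13, 8.16 and 22.4 RPKM to 34.4, 47.5, 51.7 and 80.6 RPKM (log2 ratio 2.07). XM_002278625.2 (LOC100250388), at 2.95 to 7.63 RPKM at E-L36 and 10.6 to 20.6 RPKM at E-L38, rose by the smallest ratio of the 4 (1.54). None of these 4 overlapped between the stages. Over all transcripts tested, TMM-scaled CPM did not overlap in 1218 (6.95%; 554 or 3.16% higher and 664 or 3.79% lower at E-L38).

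**Figure D2:**
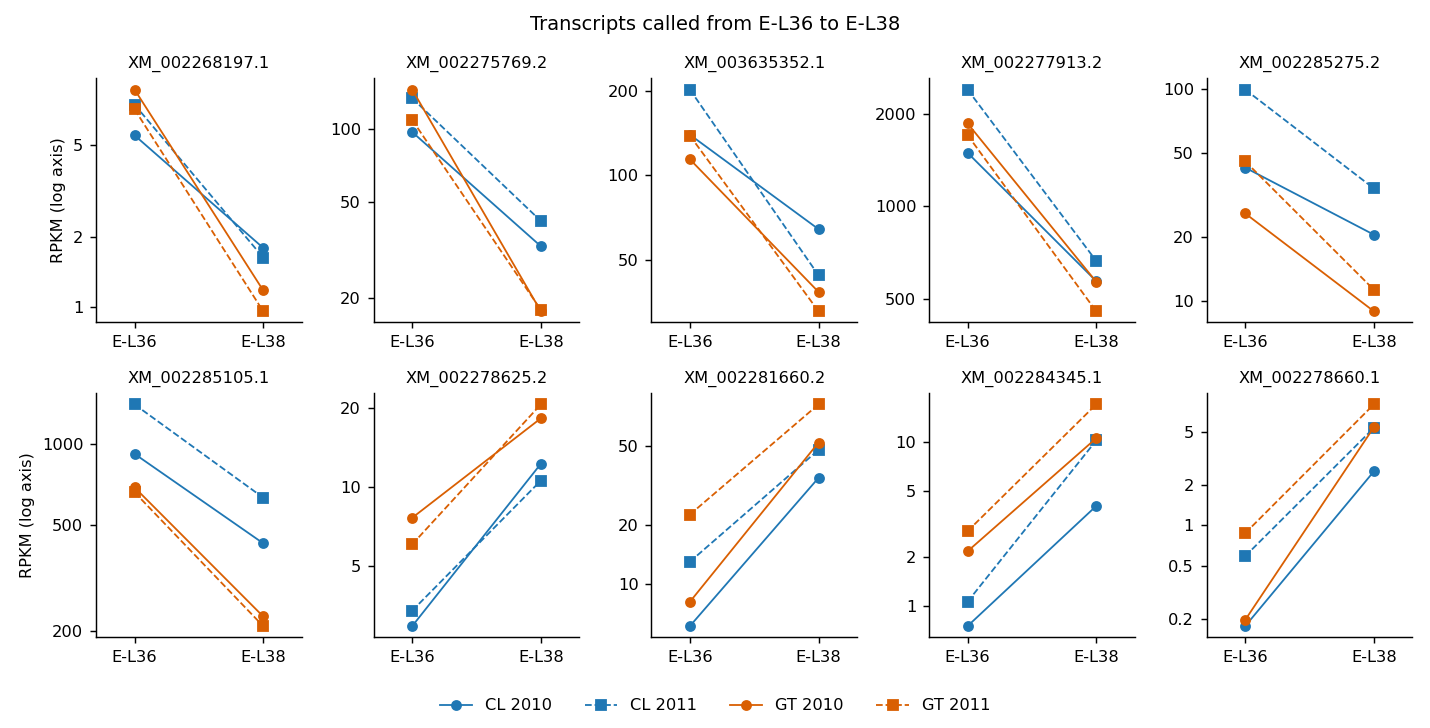
RPKM on a log axis of the 10 transcripts called from E-L36 to E-L38, 1 panel each, with 1 line for each pair of samples of a region (blue CL, orange GT) and vintage (circle 2010, square 2011). All 4 lines of a panel run the same way, downward in 6 panels and upward in 4, and in XM_002285275.2 the stages overlap.

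RPKM is scaled to the library total and edgeR's ratios to TMM factors (0.854 to 1.10), which matters for small differences. The log2 ratio of the median transcript was 0.01 with TMM and 0.14 with library totals alone. The RPKM values of the stages did not overlap in 1597 transcripts (9.11%), 1365 of them higher (7.78%) and 232 lower (1.32%) at E-L38, against the nearly even split of TMM-scaled CPM. Ratios below are relative to TMM. In bulk berries, fewer cells of a type and less RNA per cell cannot be told apart.

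Among 331 tested transcripts that carry a name in the study's tables or a symbol in the reference table, edgeR called none in the step. An unadjusted p under 0.05 was reached by 65 (19.6%, beside 15.4% of all transcripts), of which 20 were higher and 45 lower. DESeq2 called 22, with 4 higher and 18 lower, beside 3.34% of all transcripts tested (0.929% higher and 2.41% lower). The study chose many of these names on the same samples, and those described next were taken up after their values were seen. Of the 18 that were lower, 10 were on the study's list of transcription factors, which makes up 215 of the 331 names tested. DESeq2 called none of that list higher. For the 215 tested members of that list, 9 were higher and 29 lower at an unadjusted p under 0.05 (17.7%, beside 15.4% of all transcripts), with a median log2 ratio of -0.04 beside 0.01 over all.

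The list for the response to ethylene had the lowest median among the study's lists with at least 5 tested members. Of its 10 transcripts, 8 had a log2 ratio below 0, 5 were lower at an unadjusted p under 0.05 and none higher, and the median was -1.08 (-1.05 in CL and -1.10 in GT). DESeq2 called 5 of them, all lower, and edgeR 0. Over all transcripts tested, 9.21% were lower at an unadjusted p under 0.05 and DESeq2 called 2.41% lower. The ERF062-like factor XM_002267968.1, a member of the family of ethylene response factors, had 16.5, 24.6, 22.6 and 24.5 RPKM at E-L36 and 4.91, 6.33, 10.3 and 13.4 RPKM at E-L38. The stages were apart, and the harvest samples of CL were lower than those of GT (log2 ratio -1.57, SE 0.22, edgeR adjusted p = 0.0744).

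Transcripts annotated as ethylene-responsive transcription factor 5-like formed a group of 16, of which 15 were tested and 4 are also on the list for the response to ethylene, so the counts of the list and the group are not separate. The ratio was below 0 in 14 of the 15, with a median of -0.999, and 4 were lower at an unadjusted p under 0.05 (9.21% over all). Their sequences may be close enough to share reads, since the authors divided reads with several hits. XM_002281930.1 had 8.32, 9.34, 2.22 and 4.89 RPKM at E-L36 and 4.37, 3.94, 0.870 and 0.793 RPKM at E-L38 (log2 ratio -1.68, edgeR adjusted p = 0.132). XM_003633976.1 ran from 1.17 to 7.73 RPKM at E-L36 and from 0.214 to 3.15 RPKM at E-L38 (-1.68). Both were higher in CL than in GT at either stage, so the stages overlapped only across regions. XM_002281895.2 had a log2 ratio of -1.27. A further member of the ethylene list that DESeq2 called lower, XM_002272428.2 (LOC100252208), is described only as an uncharacterized protein. It had 52.9, 127, 44.5 and 32.8 RPKM at E-L36 and 41.9, 48.3, 20.7 and 16.1 RPKM at E-L38, lower in each of the 4 pairs with an overlap of the stages (-1.17, SE 0.24, edgeR adjusted p = 0.132).

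The transcripts that the study lists under ethylene synthesis lay on both sides of 0. The oxidase XM_002279710.2, annotated as 1-aminocyclopropane-1-carboxylate oxidase 1-like and belonging to the enzymes of the last step of ethylene synthesis, had 19.2, 89.9, 109 and 30.9 RPKM at E-L36 and 23.6, 20.3, 7.46 and 7.74 RPKM at E-L38. Both harvest samples of GT were below every other sample, and the 2010 CL pair differed little (log2 ratio -2.35, SE 0.63, edgeR adjusted p = 0.183). Of the 8 listed transcripts, 6 had a ratio above 0 and 2 below. The 2 below were the only members with an unadjusted p under 0.05 (9.21% lower over all transcripts tested). These were XM_002279710.2 and a further such oxidase, ACO1 (XM_002273394.2, log2 ratio -1.37, edgeR adjusted p = 0.254). ACO1 had 1.09, 3.66, 2.11 and 2.71 RPKM at E-L36 and 1.74, 1.46, 0.388 and 0.784 RPKM at E-L38. The list also holds a spermidine synthase-like transcript (XM_002263726.2, 0.08) and an S-adenosylmethionine decarboxylase (XM_002272143.2, 0.29), whose enzymes belong to polyamine synthesis. The median of the list was 0.26. An ethylene receptor 2-like transcript, XM_002284471.1, had a log2 ratio of -0.50, and the EIN3-binding F-box proteins XM_002285090.2 and XM_002285213.1, which mark the central ethylene transcription factor for degradation, had ratios of 0.42 and 0.09.

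Other regulators lay lower at harvest without passing edgeR's test. The bHLH62-like factor XM_002264933.2 had the smallest adjusted p among the named transcripts (log2 ratio -1.33, SE 0.16, edgeR adjusted p = 0.0585). Its levels were 13.6, 15.3, 6.89 and 7.20 RPKM at E-L36 and 7.87, 7.65, 2.89 and 2.34 RPKM at E-L38, so CL was higher than GT at both stages while each pair was lower at harvest. VviMYBA2 (XM_002265012.1), a MYB factor whose gene belongs to the berry color locus, had 80.1, 52.9, 73.9 and 128 RPKM at E-L36 and 46.3, 19.4, 44 and 30.5 RPKM at E-L38. The stages did not overlap (log2 ratio -1.48, edgeR adjusted p = 0.157).

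Further factors called lower by DESeq2 were the GATA16-like XM_002275462.2 (log2 ratio -1.70), the homeobox-leucine zipper ATHB-13-like XM_002276853.1 (-1.69), the TCP13-like XM_002277038.2 (-1.20), the GATA5-like XM_002272726.1 (-1.19) and the APL-like MYB XM_002264221.2 (-2.30). The APL-like MYB was weakly expressed, with 7, 9, 44 and 76 counts at E-L36 and 6, 20, 3 and 1 counts at E-L38. Its 2010 CL pair hardly differed (0.301 and 0.284 RPKM). The ATHB-13-like transcript had 2.67, 19, 4.95 and 11.3 RPKM at E-L36 and 3.70, 6.08, 1.45 and 0.973 RPKM at E-L38. Its 2010 CL pair was higher at harvest and the other 3 pairs lower (log2 ratio -0.97 in CL and -2.51 in GT). Of the 21 tested homeobox-leucine zipper (HD-Zip) factors, 3 were higher at an unadjusted p under 0.05 (6.18% over all). Only 1, the ATHB-13-like transcript, was lower at that limit (9.21% over all). By family, the median log2 ratio was -0.64 over 36 ethylene response factors, -0.56 over 11 TCP factors, -0.43 over 9 GATA factors and -0.26 over 24 bHLH factors, and near 0 over 20 WRKY (0.02) and 21 HD-Zip factors (0.08). All 5 tested heat stress factors of the list had ratios above 0 (median 0.36), as did 8861 of all 17537 transcripts tested. Only 3 of the 5 had the same sign in CL and GT, and 1 had an unadjusted p under 0.05 (6.18% higher over all). HsfA2, a heat stress factor outside the list that is described below, had a ratio of -0.39. No member of these families was called by edgeR.

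PL1 (XM_002285603.2), which the reference table gives by symbol only, had 323, 599, 311 and 663 RPKM at E-L36 and 174, 336, 148 and 206 RPKM at E-L38 (log2 ratio -1.30, SE 0.18, edgeR adjusted p = 0.0753). Each of the 4 pairs was lower at harvest, and only the 2011 CL sample of E-L38 reached the mid-ripening range. FLS1 (XM_002285803.2), a flavonol synthase by its symbol, went the other way with 6, 0, 40 and 99 counts at E-L36 and 46, 306, 128 and 136 counts at E-L38. In RPKM these were 0.270, 0, 1.60 and 3.05 at E-L36 and 1.72, 10.2, 7.47 and 10.6 at E-L38, higher in each of the 4 pairs with an overlap of the stages (edgeR adjusted p = 0.17). The sample at 0 is also the one with the fewest counts in all.

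**Figure D3:**
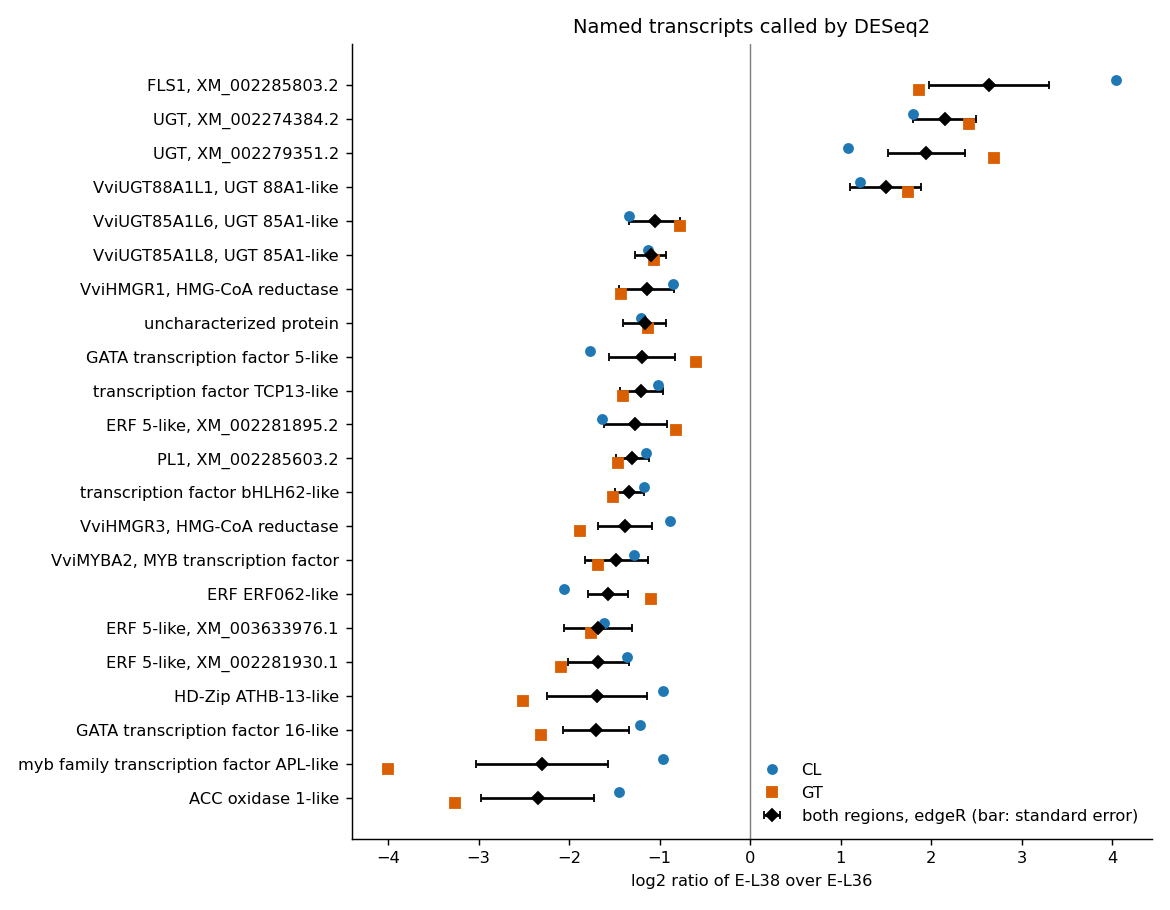
Log2 ratio of E-L38 over E-L36 for the 22 named transcripts that DESeq2 called and edgeR did not, with edgeR's ratio over both regions (black, bar for 1 standard error) and the ratios within CL (blue) and GT (orange). Of the 22, 18 are below 0 and 4 above, and since they were chosen by the step over both regions, the signs in CL and GT are not independent of that choice. The CL value of FLS1 is a fit against a sample at 0 counts.

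edgeR called no transcript of terpene synthesis in this step. Of 6 tested MEP transcripts, 5 had ratios below 0, and the median of the 6 was -0.36. An unadjusted p under 0.05 was reached by 2 of the 6, both lower (9.21% lower over all transcripts tested). VviHDR (XM_002284623.2), the last enzyme of the pathway, had 668, 669, 426 and 512 RPKM at E-L36 and 570, 474, 465 and 404 RPKM at E-L38 (log2 ratio -0.37, SE 0.19, edgeR adjusted p = 0.393). It was the most abundant of the listed MEP transcripts in every sample, and its stages overlapped. VviDXS (XM_002277883.2), which makes the first intermediate, ran from 26.1 to 34.9 RPKM at E-L36 and from 25.7 to 28.4 RPKM at E-L38 (log2 ratio -0.35). VviDXR (XM_002282725.1), the second enzyme, ran from 29.1 to 33.6 and from 26.6 to 33.9 RPKM (-0.29). VviDXSL4 (XM_002266889.2), a weakly expressed DXS homolog, had 0.927, 2.07, 2.27 and 2.07 RPKM at E-L36 and 0.845, 1.55, 0.671 and 1.06 RPKM at E-L38 (-1.04, edgeR adjusted p = 0.205).

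In the MVA pathway the 3 copies of HMG-CoA reductase, its rate-limiting enzyme, lay on both sides of 0. They are named as in the study's table of terpene genes, whereas its text uses VviHMGR2 for XM_002275791.2. VviHMGR3 (XM_002275791.2) had 4.26, 12.9, 8.68 and 15.2 RPKM at E-L36 and 4.60, 5.41, 3.10 and 3.71 RPKM at E-L38 (log2 ratio -1.38, SE 0.29, edgeR adjusted p = 0.141). VviHMGR1 (XM_002265602.1) lay lower at 0.980 to 4.60 and 0.532 to 2.38 RPKM (-1.14, edgeR adjusted p = 0.183). VviHMGR2 (XM_002283147.2), the most abundant copy, ran from 18.2 to 36.9 RPKM at E-L36 and from 23.3 to 49.6 RPKM at E-L38 (0.45, edgeR adjusted p = 0.363). DESeq2 called the 2 weaker copies lower, and edgeR called none of the 3. The acetyl-CoA acetyltransferases XM_002265654.2 (192 to 275 and 226 to 306 RPKM) and XM_003635348.1 (90.8 to 149 and 106 to 130 RPKM), which open the pathway, had ratios of 0.06 and -0.01.

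The prenyl diphosphate synthases, which set the chain length of the precursor, were close to 0. VviGPPS (XM_002268193.2), for the monoterpene precursor, had 11.6, 12.7, 15.1 and 12.2 RPKM at E-L36 and 15.2, 14.4, 16.9 and 18.2 RPKM at E-L38 (log2 ratio 0.17, SE 0.12). VviFPPS (XM_002272605.2), for the sesquiterpene precursor, had 24.2 to 29.2 and 22.1 to 33.9 RPKM (-0.23). Few terpene synthases could be tested: of 31 listed RefSeq transcripts 5 passed the filter, none of 7 in the TPS-a group. The study mapped reads to a second set of terpene synthase transcripts as well, because RefSeq is incomplete for them. It reports much higher RPKM for some synthases, whereas the values here are for RefSeq transcripts only. Low values here therefore do not show that terpene synthases were weakly expressed in the berries. VviNerL4 (XM_003635129.1), a nerolidol synthase-like transcript and the most abundant of the 5, had 4.83, 3.64, 9.50 and 12.6 RPKM at E-L36 and 4.02, 6.24, 7.48 and 5.24 RPKM at E-L38 (-0.53, edgeR adjusted p = 0.469). The alpha-terpineol synthase XM_002267417.1 was at 0.293 to 1.08 and 0.0854 to 0.403 RPKM (-1.14). A further TPS-b transcript, XM_003634831.1, taken up after its values were seen, had 1, 0, 0 and 0 counts at E-L36 and 10, 0, 17 and 13 counts at E-L38 (edgeR adjusted p = 0.201). No ratio is given for it, since it rests on samples at 0.

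UGTs held transcripts on both sides. The 24 tested UGTs of the clusters that the study selected because they rose through ripening had a median log2 ratio of 0.31 (0.40 in CL and 0.55 in GT), with 4 higher and none lower at an unadjusted p under 0.05 (6.18% and 9.21% over all). Since that selection used these samples, the list is no independent evidence of a rise. XM_002274384.2 had 0.588, 0.262, 0.558 and 0.564 RPKM at E-L36 and 2.29, 1.76, 2.92 and 3.66 RPKM at E-L38 (log2 ratio 2.15, SE 0.35, edgeR adjusted p = 0.103). XM_002279351.2 had 0.309 to 0.604 and 1.16 to 2.48 RPKM (1.95, edgeR adjusted p = 0.144), and VviUGT88A1L1 (XM_002276679.2) 0.378 to 1.53 and 2.47 to 3.92 RPKM (1.5, edgeR adjusted p = 0.175). By RPKM, all harvest samples were above all mid-ripening samples for these 3, as in 7.78% of all transcripts tested. These 3 are weakly expressed and were called by DESeq2 only.

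The 15 tested monoterpenol glucosyltransferases and their homologs, a list drawn up by sequence, had a median log2 ratio of -0.36, with 2 higher and 5 lower at an unadjusted p under 0.05 (6.18% higher and 9.21% lower over all transcripts tested). The clearest was VviUGT85A1L8 (XM_002276787.2), at 25.1, 41.7, 28.3 and 44.8 RPKM at E-L36 and 17.5, 16.5, 17.4 and 19.6 RPKM at E-L38. The stages did not overlap and the harvest values were nearly equal (log2 ratio -1.10, SE 0.17, edgeR adjusted p = 0.0944). VviUGT85A1L6 (XM_002276629.2) had 2.51 to 5.15 and 1.37 to 2.43 RPKM (-1.05), and VviUGT85A1L11 (XM_002276581.2) 6.37 to 22.4 and 3.45 to 10.9 RPKM (-1.16). Among the enzymes described as acting on monoterpenols, VviGT15 (XM_002281477.2) had 4.96, 4.84, 9.27 and 9.95 RPKM at E-L36 and 4.29, 4.69, 4.68 and 4.84 RPKM at E-L38 (-0.72, edgeR adjusted p = 0.214), which was a small difference in CL (-0.33) and a larger one in GT (-1.09). VviGT7 (XM_002276510.1) had 20.6 to 33.6 and 27.2 to 33.8 RPKM (0.23).

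VviGT14 (XM_002285734.2), another of them, had ratios of opposite sign in the regions. It had 172, 210, 42.8 and 76.9 RPKM at E-L36 and 118, 57.9, 107 and 92.6 RPKM at E-L38. Both CL samples were higher than both GT samples at mid-ripening, whereas at harvest the regions overlapped (log2 ratio -1.29 in CL and 0.63 in GT). VviUGT85A1L1 (XM_002285742.2) showed the same arrangement at 22.2, 23.5, 6.47 and 10.6 RPKM and then 15.3, 9.18, 13.1 and 12.1 RPKM (-1.16 in CL and 0.47 in GT). The difference between the regions was 1.93 (SE 0.67) for VviGT14 and 1.63 for VviUGT85A1L1, with an adjusted p of 0.604 in edgeR for both.

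Of the 6 transcripts listed for abscisic acid synthesis and its carotenoid precursors, 2 were higher at an unadjusted p under 0.05 (6.18% over all) and none lower. These 2 were the abscisic acid 8'-hydroxylase and the carotenoid cleavage dioxygenase described below, of which the first breaks the hormone down. Of the 5 listed for the response 1 was higher and 1 lower. The PYL4-like receptor XM_002264122.2 had 2.32, 2.22, 2.06 and 4.09 RPKM at E-L36 and 1.74, 6.59, 11.4 and 19.8 RPKM at E-L38 (log2 ratio 1.29, SE 0.54, edgeR adjusted p = 0.317). The 2010 CL pair was the only one not higher at harvest. The PYR1-like receptor XM_002280325.1 went from 52.5 to 102 RPKM to 51.7 to 62.3 RPKM (-0.70). The abscisic acid 8'-hydroxylase 4-like transcript (XM_002282197.1) was higher in each of the 4 pairs, at 0.275 to 0.988 and 0.516 to 3.23 RPKM (1.29, edgeR adjusted p = 0.189). The carotenoid cleavage dioxygenase 4-like XM_002270125.1 had 70.8, 108, 73.0 and 73.1 RPKM and then 112, 101, 131 and 139 RPKM (0.47). The SAPK7-like kinase XM_002267886.1 and the ABI5-like factor XM_003631566.1 had ratios near 0 in CL (-0.02 and -0.08) and below 0 in GT (-1.87 and -1.31).

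**Figure D4:**
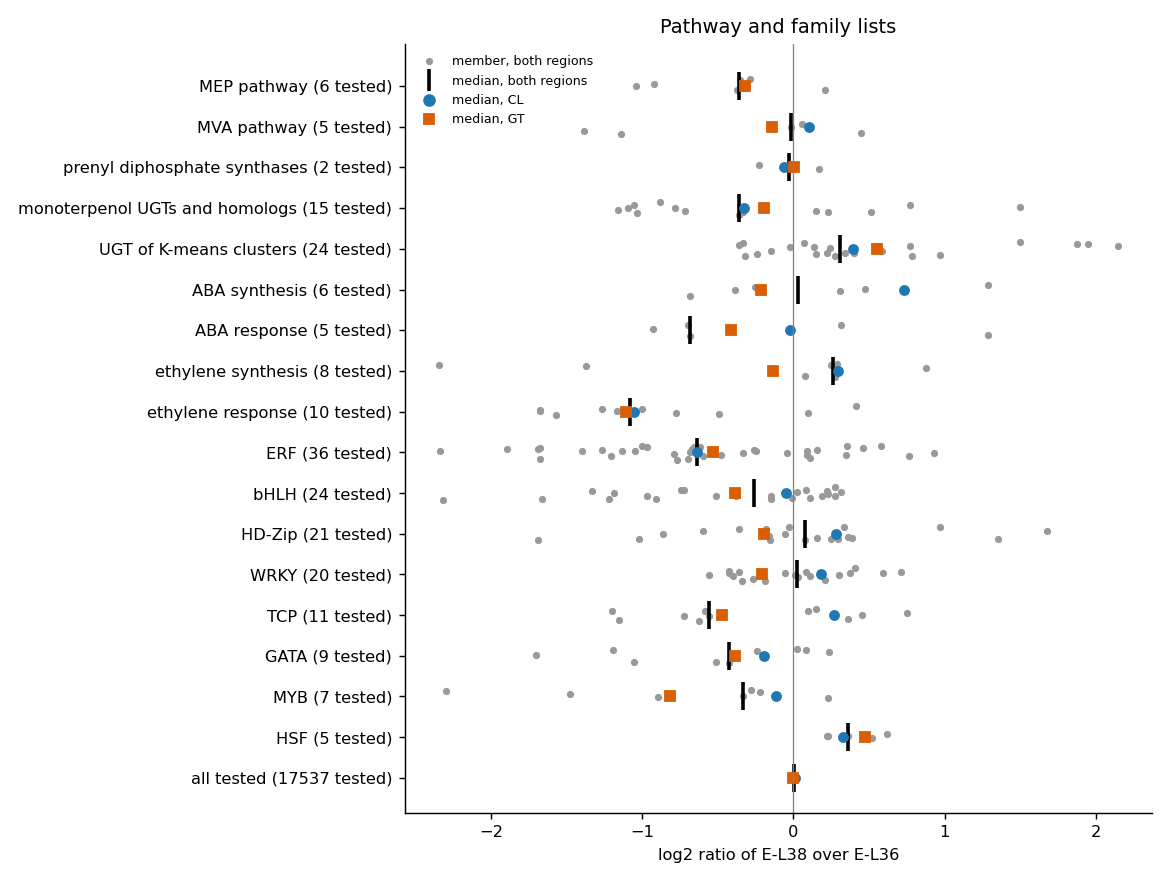
Log2 ratio of E-L38 over E-L36 for the tested members of pathway and family lists (grey points), with the list's median over both regions (black bar) and in CL (blue) and GT (orange); the lowest row gives the medians of all transcripts tested, without points. The ethylene response list has the lowest median (-1.08) and HSF the highest (0.36), and the median is above 0 in CL and below 0 in GT for ABA synthesis (0.73 and -0.21), TCP (0.27 and -0.47), ethylene synthesis (0.29 and -0.14), MVA (0.10 and -0.14), HD-Zip (0.28 and -0.19) and WRKY (0.18 and -0.21).

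Whether the step went the same way in CL and GT was asked for each region in a fit with 4 groups of stage and region. edgeR called 0 transcripts in CL (1465 at an unadjusted p under 0.05, 136 or 0.776% by DESeq2, 0 by limma on RPKM) and 0 in GT (2890 at an unadjusted p under 0.05, 773 or 4.41% by DESeq2, 11 by limma). Without library 2 of the 2010 GT sample of E-L38, the count in GT was 90. The 2 regions share no sample, so their ratios can be set side by side. Over the 17537 transcripts 59.1% had the same sign, and the ratios correlated with a Pearson's r of 0.141 and a Spearman's rho of 0.228, as a description over transcripts that are not independent. Among the 534 transcripts with an unadjusted p under 0.05 in both regions, 474 had the same sign (88.8%), and among the 57 called in both by DESeq2, 51 (89.5%).

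The likeness of the regions depended on which samples were compared. By pair of samples, the ratios of 2010 GT and 2011 GT correlated best (r = 0.522), those of 2010 CL and 2011 CL hardly (0.0276), and those of 2010 GT and 2011 CL had an r of -0.0835. The last comparison holds the 2010 GT sample of E-L36 and the 2011 CL sample of E-L38, which lay close to each other. Without both, the r of CL against GT was 0.379 in place of 0.141. The 2010 CL pair also had the narrowest spread of ratios, with 9.66% of transcripts at an absolute log2 ratio of at least 1 against 17.6 to 21% in the other 3 pairs.

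**Figure D5:**
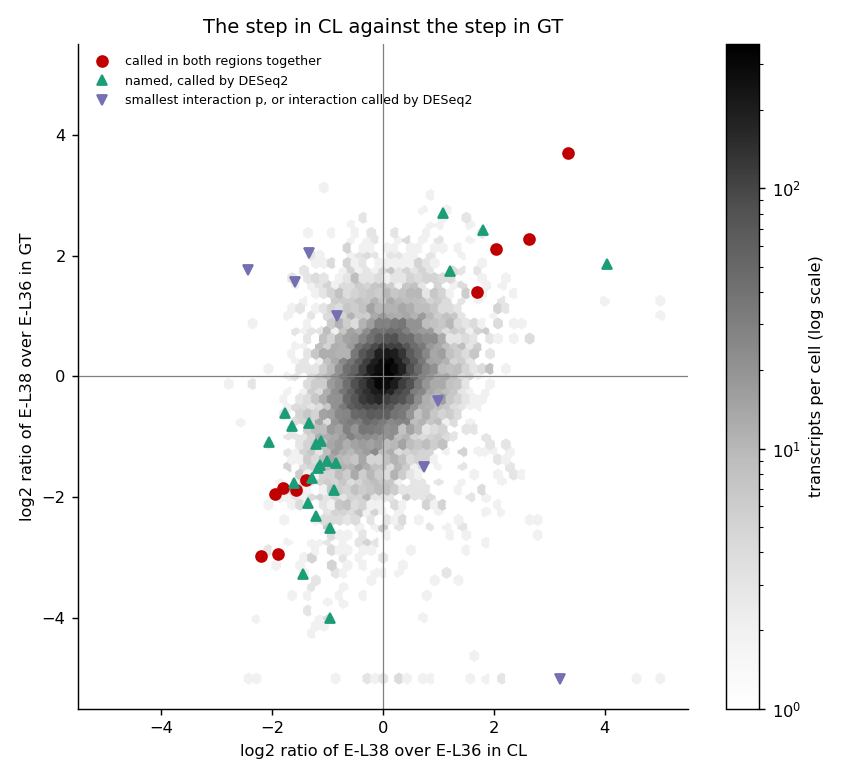
Log2 ratio of E-L38 over E-L36 in CL (x axis) and GT (y axis) for the 17537 transcripts tested, as a density with values beyond -5 and 5 drawn at those limits, and named transcripts as points. The 10 transcripts called in both regions together lie in the lower left and upper right, as their choice by the mean of both regions favors, and the cloud as a whole is nearly round (r = 0.141).

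The difference of the step between GT and CL passed the test for no transcript in edgeR (1435 at an unadjusted p under 0.05, smallest adjusted p 0.12), while DESeq2 called 114 (0.65%) and limma 0. The 5 transcripts with the smallest p have no name in the study's tables or the reference. XM_002276331.2 had 198, 262, 61.4 and 56 RPKM at E-L36 and 103, 140, 216 and 298 RPKM at E-L38 (log2 ratio -1.33 in CL and 2.03 in GT). XM_002277338.1 had 96.6, 109, 9.48 and 8.34 RPKM and then 32.8, 19.6, 29.4 and 36.2 RPKM (-2.43 and 1.77), and XM_003632443.1 had 70.7, 68.6, 10.4 and 12.8 RPKM and then 32.9, 25.8, 35.0 and 38.8 RPKM (-1.58 and 1.56). In these 3 both vintages were alike in each region, with CL above GT at mid-ripening and GT above or level with CL at harvest.

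XM_003633274.1 (LOC100263170) had the mirror pattern, with 7.27, 12, 29.6 and 29.3 RPKM at E-L36 and 18.5, 16, 9.39 and 12.9 RPKM at E-L38 (0.74 in CL and -1.51 in GT). XM_002278605.2 (LOC100265113) had 2, 1, 54 and 85 counts at E-L36 and 25, 56, 0 and 0 counts at E-L38, so it was seen in GT at mid-ripening and in CL at harvest. DESeq2 also called the difference for 2 named transcripts, taken up after their values were seen. An ERF factor, XM_002263269.2, had 82.6, 99.5, 41.2 and 50.6 RPKM and then 58.4, 62.4, 91.7 and 107 RPKM (-0.83 in CL and 1.01 in GT, edgeR adjusted p = 0.489). An S-adenosylmethionine decarboxylase, XM_002272143.2, for an enzyme of polyamine synthesis, had 27.6, 27.5, 58.9 and 72.3 RPKM and then 67.3, 62.3, 51.9 and 54.7 RPKM (0.99 and -0.41).

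Transcripts of the PR10 family, proteins that build up in many plants under attack or stress, had ratios of opposite sign in the regions and marked the 2 samples that lay close to each other. They were taken up after their values were seen, and copies of the family may share reads. Of 7 members 6 were tested, with ratios above 0 in CL (median 1.51) and below 0 in GT (median -2.06) in each of the 6. In the 2010 CL pair, however, every tested member except PR10.7 had a lower RPKM at harvest. The ratios above 0 in CL therefore rest on the 2011 CL pair. PR10.4 and PR10.9 were weakly expressed, with 1 count in some samples. PR10.2 (XM_002274206.2), by far the most abundant, had 556, 139, 1706 and 389 RPKM at E-L36 and 242, 1748, 283 and 288 RPKM at E-L38. The 2010 GT sample of E-L36 and the 2011 CL sample of E-L38 were far above the next sample, and within CL the vintages went opposite ways (edgeR adjusted p of the difference between regions 0.629). PR10.7 (XM_002273754.2) had 3.76, 8.16, 14.6 and 23.4 RPKM and then 3.82, 31.1, 3.92 and 4.54 RPKM, where 2011 GT was high at mid-ripening too. Without the 2011 CL sample of E-L38 the sign of the difference between the regions turned for PR10.5 (XM_002273946.2, from -2.44 to 0.29) and PR10.4 (XM_002274072.2, from -4.08 to 1.97).

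The stress-related regulators HsfA2 and CBF4 were highest in a different sample, that of 2010 CL at E-L36. HsfA2 (XM_002278673.1), a factor induced by heat, had 40.9, 1.65, 0.757 and 0.338 RPKM at E-L36 and 1.37, 1.90, 3.29 and 3.92 RPKM at E-L38. The 2010 CL sample of E-L36 alone stood out, and the ratio in CL (-3.61) rests on it. CBF4 (XM_002280061.1), of a family induced by cold, had 23.7, 5.93, 0.838 and 7.86 RPKM and then 12.2, 0.418, 3.42 and 0.105 RPKM (log2 ratio -2.44, SE 1.25, edgeR adjusted p = 0.4), and was higher in 2010 CL than elsewhere at both stages. TMT2 (XM_002282939.1), a sugar transporter of the vacuole membrane, had 33.6, 69.7, 98.4 and 51.9 RPKM and then 34.5, 76.8, 23.7 and 23.9 RPKM, near 0 in CL (-0.11) and lower in GT (-1.76) without passing the test of the difference (edgeR adjusted p = 0.604).

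The difference of the step between 2011 and 2010 was called for 0 transcripts by edgeR (1176 at an unadjusted p under 0.05, smallest adjusted p 0.713), 94 by DESeq2 (0.536%) and 0 by limma. Without the 2011 GT sample of E-L38 edgeR called 92.

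At harvest the 5 transcripts with the highest RPKM had no name in the tables. XM_002284998.2, with 43157 to 65874 RPKM at E-L36 and 38660 to 43988 RPKM at E-L38, was the highest in each of the 8 samples (log2 ratio -0.55, SE 0.31). XM_002285267.2, XM_002285001.1 and XM_002284477.2 lay between 12688 and 23199.7 RPKM at harvest (-0.55, -0.30 and -0.55). XM_002276814.2 (LOC100257132) was the one with a ratio above 0, with 11677, 2645, 7787 and 11876 RPKM and then 22412, 8990.1, 31358 and 31355 RPKM. Each pair was higher at harvest (1.26, SE 0.50, edgeR adjusted p = 0.303), and 2011 CL was the lowest sample at both stages.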

How the data were processed

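Deseeded berries were sequenced in strand-specific libraries, and the authors trimmed the reads and mapped them to grape RefSeq transcripts with CLC Genomics Workbench, dividing reads with several hits by the unique reads of each transcript. For 23984 transcripts the deposited files give total and unique read counts (the latter used as an alternative) and RPKM, which the authors scaled to transcript length and library total. The E-L36 and E-L38 columns were mapped to samples by the labels, and no sample was left out. Labels do not say from which of the study's repeats a library came. The 2 libraries of an E-L38 sample differed beyond sampling noise (chi-square per degree of freedom 8.32 to 26.2), so none was a copy. Counts were summed per sample, and RPKM was averaged.

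Summed counts were tested in R 4.3.3 with edgeR 4.0.16 (TMM, glmQLFit, glmQLFTest, common dispersion 0.103 for the step) and Benjamini-Hochberg adjustment. The step was fitted with region and vintage as terms. Regions and their difference were contrasts of 4 groups with vintage as a term, and the vintages were compared by an interaction. Calls needed an adjusted p up to 0.05 and a log2 ratio of 1 or more in size, limits taken from the study, which however adjusted its p-values by Bonferroni (run here as an alternative). DESeq2 1.42.0 and limma 3.58.1 on log2(RPKM + 1) or log2(RPKM + 0.1) were alternatives, with other filters, scalings, reads, libraries and blocks and each sample left out. The scripts were tested on simulated data.

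Named were members of the study's lists that were called (edgeR called none), the structural members with the highest RPKM, the 2 unnamed called transcripts with the largest ratio in each direction, the 5 smallest interaction p and the 5 highest RPKM at E-L38; other names were chosen after values were seen. Members and lists were chosen with earlier results of these data known. A name or symbol was found for 451 transcripts (56 symbols from the reference table), so lists by product name, tissue markers included, could not be built, and the tissue was not checked. No sequences or coordinates are given, since none of the build used was at hand.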

Additional observations from a re-analysis of the deposited data

Results flagged for a closer look

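For the 85 transcripts followed through the alternatives, the RPKM of each stage's 4 samples was searched for a sample far from the other 3, by Dixon's ratio of the gap to its neighbour over the range. Of 170 groups 15 were beyond the limit that chance passes in about 1 in 20. The count cannot be tested against that rate, since the PR10 members and other transcripts among the 85 were chosen after their values were seen. The groups below are therefore given as a description only. The 2011 CL sample of E-L38 was the outlying one in 5: PR10.2 (1748 RPKM, others 242 to 288), PR10.7 (31.1, others 3.82 to 4.54), PR10.4 (7.06, others 0.0957 to 0.678), PR10.9 (3.59, others 0.249 to 0.348) and VviFPPS (33.9, others 22.1 to 23.2). PR10 transcripts may share reads and are not independent.

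The 2010 CL sample of E-L36 stood apart in 4: HsfA2 (40.9 RPKM, others 0.338 to 1.65), VviGT7 (33.6, others 20.6 to 22.7), VviDXSL4 (0.927, others 2.07 to 2.27) and the TPS-b transcript XM_003634831.1 (0.0482, a single count, others 0). The 2011 CL sample of E-L36 stood apart in 3: the carotenoid cleavage dioxygenase 4-like XM_002270125.1 (108, others 70.8 to 73.1), the GATA16-like XM_002275462.2 (3.24, others 1.62 to 1.72) and the UGT XM_002274384.2 (0.262, others 0.558 to 0.588). The 2011 GT samples stood apart in 3, at E-L36 in the PYL4-like XM_002264122.2 (4.09, others 2.06 to 2.32) and the ABI5-like XM_003631566.1 (26, others 15 to 16.5), and at E-L38 in VviUGT88A1L1 (3.92, others 2.47 to 2.57).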

How the results depend on the processing

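The 10 transcripts called in the step kept their direction under every alternative, but their number did not hold. It was 26 without a minimum count, 4 with library totals, 2 and 3 with limma on log2(RPKM + 1) and log2(RPKM + 0.1), 24 with unique reads, 35 with the first library of each E-L38 sample, 0 with the second, 127 with all 16 samples in 1 fit, 0 to 71 with a sample left out, and 0 by Bonferroni; DESeq2 called 585. Without the 2010 GT sample of E-L36 and the 2011 CL sample of E-L38, a setting chosen after seeing the data like that without library 2 of the 2010 GT sample of E-L38, it was 0. Vintage numbers do not pair the samples by their deviations from the group means, which correlated from -0.329 to 0.223. Without the replicate block the count was 6, and with each of the 4 pairs as a block it was 0. In GT, 0 became 7 without a minimum count, 2 with library totals, 11 with either limma, 83 with the first libraries, 114 with all 16 samples, 10 without the block, 90 without library 2 of the 2010 GT sample and 773 with DESeq2; in CL it became 136 with DESeq2. The difference between regions went to 114 with DESeq2 and was 0 to 2 with a sample left out, that between vintages to 94 and 0 to 92. List members called went from 0 to 20 with DESeq2 and 4 with all 16 samples. The r of CL and GT was 0.379 without the 2 samples.

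Of 2068 values for 85 transcripts under alternatives, 1875 stayed on their side of the threshold in the same direction, 135 lost and 36 gained the call, and 22 turned sign. These were XM_003635348.1 (library totals 0.13, limma 0.13 and 0.13, second library 0.021, -0.14 to 0.18 with a sample left out), XM_002265654.2 (-0.13 without the 2 samples, -0.082 to 0.14), VviUGT85A1L3 (XM_002268601.2, -0.019 without the replicate block, -0.14 without the 2 samples, -0.23 to 0.44), VviGT14 (-0.88 to 0.21), VviUGT85A1L1 (-0.81 to 0.072), and the difference between regions of PR10.5 (0.26 without the 2 samples, -3.74 to 0.29) and PR10.4 (1.3, -6.52 to 1.97). The cause was not tested. Depth limits the weak transcripts most, since the 2011 CL sample of E-L36 held 4698604 counts.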
